A study of Rattus norvegicus with 24 samples.

Results

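The mitochondrial ribosomal protein genes code for the protein part of the ribosome that works inside mitochondria. Members were the genes whose symbol begins with Mrpl or Mrps and a digit and that had a probe set (a group of array probes read as 1 value) naming that gene alone. The rule found 73 of the 13438 genes measured. They were covered by 99 probe sets, and where a gene had several, the brightest on average stood for it. By general knowledge of the particle, 48 of the proteins belong to the large subunit and 25 to the small subunit. Mrps30 and Mrps18a count among the large-subunit proteins despite their names. The members and the lists used beside them were chosen with earlier results of these data known.

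Liver RNA came from 24 male Sprague Dawley rats aged 8 weeks, with 1 rat per array and 6 rats in each of 4 groups. ANIT rats received a single 50 mg/kg dose of alpha-naphthylisothiocyanate, a toxicant of bile duct epithelium and hepatocytes, in corn oil into the stomach, and vehicle rats received the oil alone at 10 ml/kg. Necropsy followed at 24 h, which the series places at peak injury, or at 120 h, which it places at resolution. All groups were fasted for about 18 h and received bromodeoxyuridine, a label of DNA synthesis, at 100 mg/kg 2 h before necropsy, so that no group was free of either.

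Mitochondria keep a small genome that codes for core subunits of the respiratory chain, and their own ribosome translates those messages at the inner membrane. The ribosomal RNAs come from mitochondrial DNA, while every ribosomal protein is coded in the nucleus, made in the cytosol and imported. Some of these proteins descend from bacterial ribosomal proteins, and others are additions found in mitochondria. Hepatocytes are rich in mitochondria, and this ribosome is needed in them to build the enzymes of oxidative phosphorylation.

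The arrays differed in spread before any comparison. The values are log2 expression values, so that 1 unit is a doubling, and the SD of all values on an array ran from 1.84 to 2.09. The 6 arrays with the lowest SD, called narrow arrays here, were vehicle 24 h replicates 3, 4 and 5 and ANIT 120 h replicates 4, 5 and 6. The number 6 was fixed rather than set by a break in the values. The highest SD among them was 1.90 (vehicle 24 h replicate 4), and the next array stood at 1.93 (ANIT 24 h replicate 4). The mean of the 73 genes lay between 7.83 and 8.07 on the narrow arrays and between 8.14 and 8.63 on the other 18, so the ranges did not meet. It was not particular to these genes, since the 1395 genes of any kind with a mean level of 8 to 9 averaged 8.17 to 8.31 on the narrow arrays and 8.41 to 8.70 on the others. By group, the mean of the 73 genes was 8.18 ± 0.21 in vehicle rats at 24 h, 8.46 ± 0.13 in ANIT rats at 24 h, 8.37 ± 0.14 in vehicle rats at 120 h and 8.18 ± 0.36 in ANIT rats at 120 h (SD, n = 6 each). Narrow arrays thus sat in the vehicle group at 24 h and in the ANIT group at 120 h, and the counts of members called with ANIT at 24 h, at 120 h and in the difference between the times are given without them as well.

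**Figure D1:**
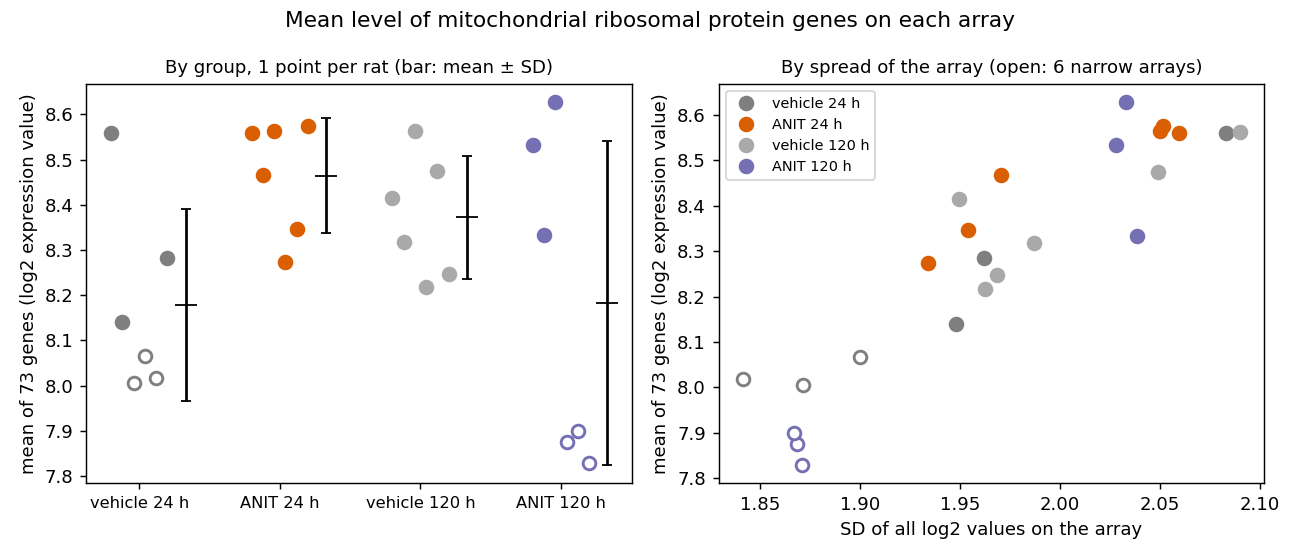
The left panel plots the mean log2 expression value of the 73 genes in every rat by group, with the group mean and SD as a bar, and the right panel plots the same means against the SD of all log2 values on each array. Open points are the 6 narrow arrays, which lie at 7.83 to 8.07, below all 18 others at 8.14 to 8.63.

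Of the array measures tested, only the beta-actin ratio differed with treatment at 24 h at an adjusted p under 0.05. The log2 ratio of the 3′ to the 5′ beta-actin control, which rises when RNA is shortened or amplified from its 3′ end, was 3.12 ± 0.07 in ANIT rats and 2.84 ± 0.05 in vehicle rats at 24 h (SD, n = 6 each), and the groups did not overlap (exact permutation test, two-sided, p = 0.0022, adjusted p = 0.018 over 8 tests of array measures). At 120 h it was 2.76 ± 0.15 and 2.83 ± 0.08, respectively. The same ratio for the GAPDH control lay the other way at 24 h, at 1.62 ± 0.04 in ANIT rats and 1.71 ± 0.08 in vehicle rats (exact p = 0.048, adjusted p = 0.19). The mean level of the 9 spiked hybridisation controls, which are added to every sample in fixed amounts, was 10.46 ± 0.30 in ANIT rats and 10.87 ± 0.39 in vehicle rats at 24 h (exact p = 0.071, adjusted p = 0.19). The part of these measures in the results was not tested beyond the fits that carry them as covariates. The beta-actin ratio and the treatment cannot be told apart at 24 h, because their values separate the same rats. Markers of hepatocytes, 7 genes measured, averaged 12.47 to 12.63 on every array. Hnf4a was the 1 of the 7 called at 24 h (higher, 0.31 ± 0.09, limma adjusted p = 0.019), and it was not called without the narrow arrays (adjusted p = 0.16) or with the control level as covariate (adjusted p = 0.058). Of the 5 neutrophil markers measured, S100a8 (log2 change 1.82) and S100a9 (0.87) were higher with ANIT at 24 h, and of the 5 macrophage markers Lyz2 and Cd163 were. Lymphocyte markers were lower in 2 of 5 and stellate and endothelial markers in 2 of 6, and the marker of dividing cells Ccnb1 was the 1 of 6 that was lower. Over all genes, 12.9% were called higher and 5.31% lower at 24 h. The mean of the neutrophil list ran from 4.67 to 5.56 in vehicle rats and from 5.35 to 5.67 in ANIT rats at 24 h, that of the macrophage list from 8.69 to 8.82 and from 8.83 to 9.11. The higher mean of the neutrophil list lay mostly in S100a8 and S100a9. The lymphocyte list ran from 4.78 to 5.15 and from 4.58 to 4.82, and the stellate and endothelial list from 6.96 to 7.36 and from 6.69 to 7.08. Their part in the member changes was not tested. No cholangiocyte marker of 6 was called at 24 h, and Krt19 and Cftr were higher at 120 h. In whole liver, fewer cells of a type and less RNA per cell cannot be told apart.

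At 24 h, 18 of the 73 genes were higher in ANIT rats and 0 were lower (limma, adjusted p under 0.05 by Benjamini-Hochberg across the 13438 genes, whatever the fold). Across all genes, 12.9% were called higher and 5.31% lower. The changes of the 73 genes ran from -0.35 to 1.01 on the log2 scale with a median of 0.25, against a median of 0.00 over all genes, and 67 of 73 were above 0. All genes include many dim ones, and among genes of a like level, given further below, the gap was smaller. Leaving out the 6 narrow arrays left 9 genes higher and 1 lower, where 6.11% of all genes were higher and 5.45% lower, with a median of 0.13. Taking the spiked control level as a covariate gave 9 higher and 3 lower, where 8.13% and 10.3% of all genes were called, with a median of 0.05. The same 9 genes were higher in both fits. They were Mrps18b, Mrps27, Mrps22, Mrps28 and Mrps2 of the small subunit and Mrpl17, Mrpl49, Mrpl37 and Mrpl55 of the large subunit.

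Mrps18b codes for one of the mitochondrial relatives of bacterial S18. Its log2 expression value was 8.81, 9.21 and 9.57 (lowest, median and highest of 6 rats) with vehicle at 24 h and 9.80, 10.11 and 10.27 with ANIT. Every ANIT rat was above every vehicle rat, and the narrow arrays held the 3 lowest vehicle values. The rise was 0.87 ± 0.12 (log2 change ± SE, limma adjusted p = 1.1e-05), which is 1.83-fold. It was 0.64 without the narrow arrays, 0.68 with the control level and 0.87 with the beta-actin ratio as covariate, and it was called in each.

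Mrps27, a small-subunit protein of the pentatricopeptide repeat type, a fold that binds RNA, showed the steepest change among the 73 genes. The lowest, median and highest values were 5.80, 6.00 and 6.69 with vehicle and 6.98, 7.10 and 7.34 with ANIT at 24 h. There was no overlap. Mrps27 rose by 1.01 ± 0.16 (limma adjusted p = 5.7e-05), or 2.02-fold, and by 0.79 without the narrow arrays and 0.73 with the control level as covariate.

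The other small-subunit genes of the 9 were Mrps22, an addition found in mitochondria, Mrps2, the relative of bacterial S2, and Mrps28. Mrps22 ran from 7.74 through a median of 8.16 to 8.52 with vehicle and from 8.59 through 8.68 to 8.86 with ANIT. Mrps2 ran from 7.16 through 7.61 to 7.94 with vehicle and from 8.08 through 8.12 to 8.20 with ANIT. In both genes the ANIT rats lay close together above all vehicle rats, with an SD for Mrps2 of 0.05 against 0.29 in vehicle rats. Their rises were 0.58 ± 0.11 (limma adjusted p = 0.00047) for Mrps22 and 0.58 ± 0.12 (adjusted p = 0.0012) for Mrps2. Mrps28 ran from 7.15 through 7.75 to 8.12 with vehicle and from 8.09 through 8.45 to 8.96 with ANIT, so that 1 ANIT value fell within the vehicle range. It rose by 0.76 ± 0.18 (limma adjusted p = 0.0042). Without the narrow arrays the rises of Mrps22, Mrps2 and Mrps28 were smaller, at 0.36 (adjusted p = 0.018), 0.41 (adjusted p = 0.033) and 0.52 (adjusted p = 0.031). With the control level as covariate the value for Mrps28 was 0.39.

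Among large-subunit genes, Mrpl49, a mitochondrial addition, rose most. Its values were 7.40, 7.69 and 8.22 with vehicle and 8.37, 8.58 and 8.78 with ANIT (lowest, median and highest). All ANIT rats were above all vehicle rats, and the rise was 0.83 ± 0.16 (limma adjusted p = 0.00067), or 1.78-fold. Mrpl17, the relative of bacterial L17, held a narrow range in vehicle rats, from 8.65 through 8.72 to 8.88, and lay at 9.16, 9.24 and 9.41 with ANIT. The ranges did not meet, and the 0.52 ± 0.10 rise (adjusted p = 0.00063) stayed at 0.50 without the narrow arrays. Mrpl49 stood at 0.63 without them and at 0.54 with the control level as covariate.

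Mrpl37, also an addition, and Mrpl55, counted with the bacterial relatives, rose with overlap between the groups. Mrpl37 went from 7.92, 8.02 and 8.32 with vehicle to 8.22, 8.54 and 8.66 with ANIT, a rise of 0.46 ± 0.11 (limma adjusted p = 0.0040). Mrpl55 went from 7.65, 8.18 and 8.68 to 8.55, 8.90 and 8.95, a rise of 0.68 ± 0.17 (adjusted p = 0.0054). Without the narrow arrays Mrpl37 stood at 0.42 and Mrpl55 at 0.49, and with the control level as covariate at 0.30 and 0.40. In each, the vehicle 24 h rat of replicate 1 reached into the ANIT range. The groups of 6 did not overlap in 9 of the 73 genes, all higher with ANIT, where 5.54% of all genes separated upward and 2.32% downward. These were Mrps18b, Mrps27, Mrps22, Mrps2, Mrpl49, Mrpl17, Mrpl41, Mrpl50 and Mrps11, the last of which was not called (0.25 ± 0.10, adjusted p = 0.10).

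**Figure D2:**
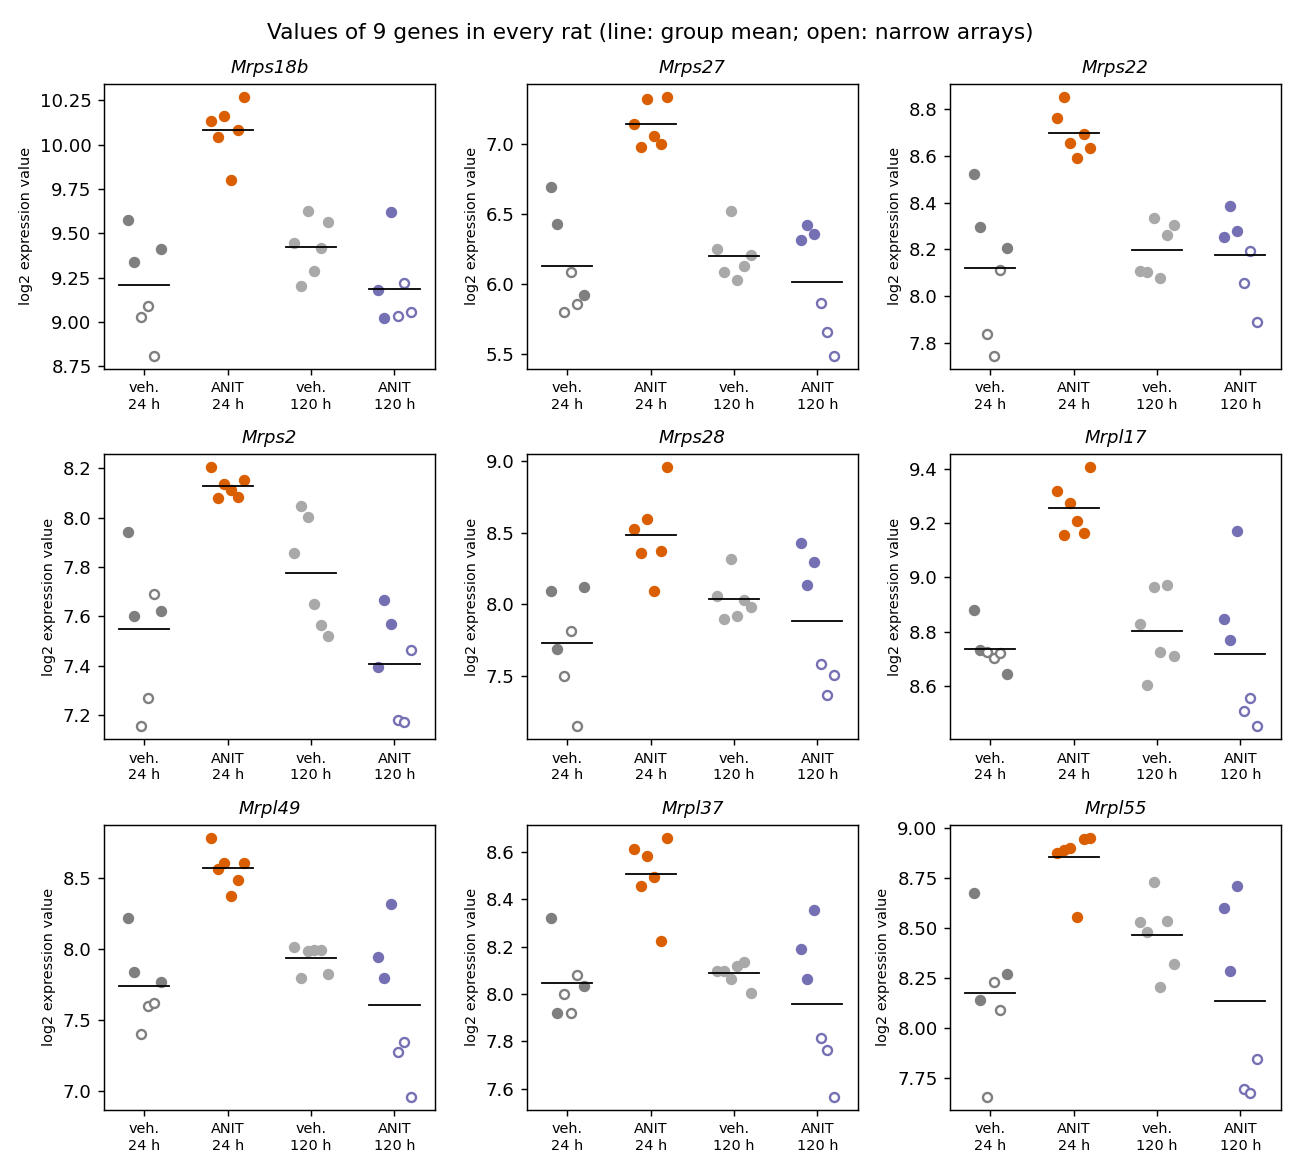
Log2 expression values of the 9 genes called higher at 24 h in all of the fits with every array, without the narrow arrays and with the control level, with 1 point per rat, a line at each group mean and open points for narrow arrays. In Mrps18b the ANIT 24 h rats lie at 9.80 to 10.27, above every rat of the other groups, and in Mrpl55 the ANIT 24 h and vehicle 24 h rats overlap.

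Another 9 genes were called with all arrays. Mrps7, the relative of bacterial S7 that sits in the head of the small subunit, rose by 0.41 ± 0.12 (limma adjusted p = 0.013), and lay at 0.27 (adjusted p = 0.13) without the narrow arrays. The other 8 called genes, Mrpl47, Mrpl41, Mrpl21, Mrpl53, Mrps34, Mrpl50, Mrpl48 and Mrpl54, rose by 0.37 to 0.62, and none of them was called without the narrow arrays or with the control level as covariate. The array of vehicle 24 h replicate 1 had the highest SD of its group, at 2.08, and the highest member mean, at 8.56. Leaving out this rat raised the count from 18 to 31. It was 10 without vehicle 24 h replicate 3, vehicle 24 h replicate 4 or ANIT 24 h replicate 6, and 11 without vehicle 24 h replicate 2 or ANIT 24 h replicates 1, 2 or 3. The 9 genes and Mrps7 were called each time. The share of all genes called was not counted in the fits without 1 rat, so these counts have no background beside them. With the beta-actin ratio as covariate, only Mrps18b and Mrps27 of the 73 were higher, where 3.44% of all genes were. After quantile normalization 16 were higher and 3 lower, where 13.0% and 8.1% of all genes were called.

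**Figure D3:**
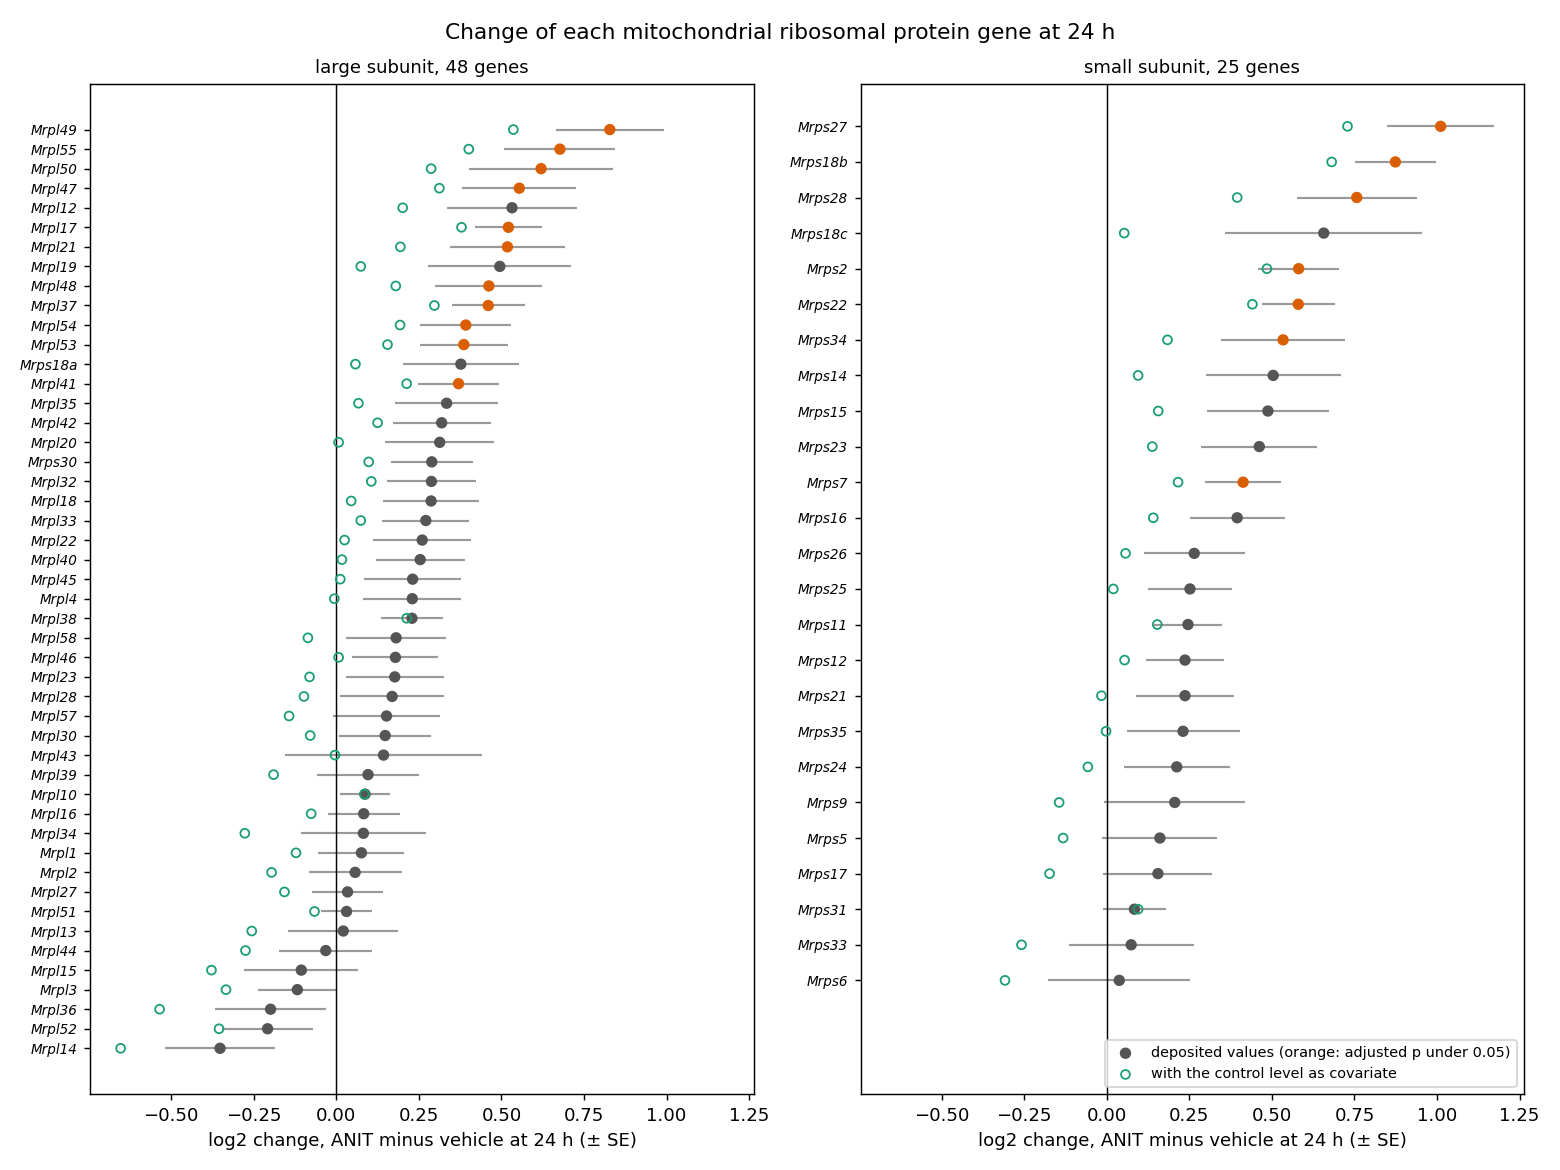
Log2 change at 24 h, ANIT minus vehicle, for each of the 73 genes by subunit, as filled points with SE from the deposited values (orange where the adjusted p is under 0.05) and as open points with the spiked control level as covariate. All 25 small-subunit genes lie above 0 in the deposited values, and the open points lie mostly to the left of the filled ones, with medians of 0.05 against 0.25.

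Calls at the low end depended on the array measures. Mrpl14, whose protein is the partner of the assembly factor Malsu1, was the lowest of the 73, with 7.30, 7.47 and 7.77 for vehicle and 6.74, 7.21 and 7.41 for ANIT (lowest, median and highest). The groups overlapped, and the change of -0.35 ± 0.17 was not called (limma adjusted p = 0.15). With the control level as covariate it was -0.65 (adjusted p = 0.00013). Mrpl36 (-0.53, adjusted p = 0.00011) and Mrpl3 (-0.33, adjusted p = 0.0029) were the other genes lower in that fit, and both were named after their values were seen. Mrpl14, Mrpl36 and Mrpl3 were also the 3 lower after quantile normalization, and Mrpl36 was the 1 lower without the narrow arrays (-0.42, adjusted p = 0.045). Mrpl52, the other gene with the smallest p in this direction, stood at -0.21 ± 0.14 (adjusted p = 0.32).

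By place in the particle, 7 of 25 small-subunit genes were called higher, with a median of 0.27 and all 25 above 0, and 11 of 48 large-subunit genes, with a median of 0.23 and 42 above 0. Small-subunit additions were called in 4 of 10 (median 0.36) and small-subunit relatives of bacterial proteins in 3 of 15 (median 0.25). Mrps18b, a called gene, was counted with the additions here, although its protein is a relative of bacterial S18. In the large subunit the counts were 7 of 19 additions (median 0.23) and 4 of 27 bacterial relatives (median 0.18). Over all genes 12.9% were called higher. These counts are from the fit with all arrays, and 9 of the 18 calls were kept without the narrow arrays and 9 with the control level. The classes were not tested against each other, and they overlap in their ranges.

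Genes with a known special role followed the same range without passing the test. Mrpl12, the stalk protein that also binds the mitochondrial RNA polymerase, had 8.05, 8.55 and 9.19 with vehicle and 8.76, 9.18 and 9.31 with ANIT, a change of 0.53 ± 0.20 (limma adjusted p = 0.062). Mrps12, a protein of the decoding centre, changed by 0.24 ± 0.12 (adjusted p = 0.17). Mrpl45, which faces the inner membrane where new chains leave, changed by 0.23 ± 0.15 (adjusted p = 0.29), and Mrpl58, which can release stalled chains, by 0.18 ± 0.15 (adjusted p = 0.43). In none of these 4 genes did the ANIT rats separate from the vehicle rats.

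Mrps18a, Mrps18b and Mrps18c descend from the same bacterial S18 family and take different places in the particle. Mrps18a, in the large subunit, ran from 7.34 to 8.32 with vehicle and from 8.04 to 8.36 with ANIT (0.38 ± 0.18, limma adjusted p = 0.14). Mrps18c ran from 5.70 to 7.31 with vehicle and from 6.46 to 7.60 with ANIT (0.66 ± 0.30, adjusted p = 0.13). Mrps18b was thus the 1 of the 3 that was called, and whether the 3 changes differ was not tested. With the control level as covariate the changes were 0.06, 0.68 and 0.05 for Mrps18a, Mrps18b and Mrps18c. Mrps30, the other large-subunit protein with an S name, stood at 0.29 ± 0.12 (adjusted p = 0.11).

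The genes with the highest array values, a property of the probes as well as of the transcript, were not called. Mrpl51 lay at 10.77, 10.90 and 11.00 with vehicle and 10.86, 10.90 and 11.00 with ANIT at 24 h, and changed by 0.03 ± 0.08 (limma adjusted p = 0.82). Mrpl33 changed by 0.27 ± 0.13 (adjusted p = 0.16). At the low end of array values, Mrps27 was called at 24 h, as described above, while Mrps11 and Mrpl19 (0.49 ± 0.22) were not. The share of genes called varied with the level in the whole table too. Among genes with a mean level of 8 to 9, a band chosen after the data were seen, 12 of 39 members (30.8%) and 364 of all 1395 genes (26.1%) were higher, with medians of 0.27 and 0.18. With the control level as covariate 5 of 39 and 227 of 1395 were higher, a smaller share in the members than in all genes of the band, with medians of 0.09 and 0.01.

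Promoters were read, as a description only, for the core letters of 3 factors known from mitochondrial biogenesis. RefSeq promoter windows of the GRCr8 build, from 250 bases before to 50 after the start, were matched for 59 of the 73 genes. Printed below, 5′ to 3′ on the gene's strand, are the 160 bases before the start for 5 genes that rose, 3 with a match and 2 without one, with whole matches in capitals. They are chr20:2842846-2843005 on the plus strand for Mrps18b, chr2:32474044-32474203 on the plus strand for Mrps27, chr1:169575700-169575859 on the minus strand for Mrpl17, chr1:212779328-212779487 on the minus strand for Mrpl49 and chr3:32200917-32201076 on the plus strand for Mrps2.
Mrps18b: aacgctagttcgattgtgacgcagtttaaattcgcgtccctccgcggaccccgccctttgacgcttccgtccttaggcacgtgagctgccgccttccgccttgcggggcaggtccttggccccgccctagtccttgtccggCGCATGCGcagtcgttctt
Mrps27: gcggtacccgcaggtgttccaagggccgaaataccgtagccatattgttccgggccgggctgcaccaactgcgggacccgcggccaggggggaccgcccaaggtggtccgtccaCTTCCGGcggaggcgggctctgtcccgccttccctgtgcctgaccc
Mrpl17: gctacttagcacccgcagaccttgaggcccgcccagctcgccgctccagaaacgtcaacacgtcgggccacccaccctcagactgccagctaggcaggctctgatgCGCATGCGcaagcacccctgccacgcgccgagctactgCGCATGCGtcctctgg
Mrpl49: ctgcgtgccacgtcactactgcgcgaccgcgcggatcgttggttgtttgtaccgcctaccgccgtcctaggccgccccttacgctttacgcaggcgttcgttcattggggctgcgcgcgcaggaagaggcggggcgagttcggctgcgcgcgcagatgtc
Mrps2: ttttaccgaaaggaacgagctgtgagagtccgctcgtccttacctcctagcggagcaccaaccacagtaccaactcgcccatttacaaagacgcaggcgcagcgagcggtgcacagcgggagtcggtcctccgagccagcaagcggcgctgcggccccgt
The capitals mark CGCATGCG, the core of the nuclear respiratory factor 1 site, in Mrps18b and Mrpl17, and CTTCCGG, the reverse strand of the ETS family core CCGGAAG, in Mrps27. In Mrps18b another CTTCCGG begins 3 bases before the start and runs across it, so it is not in capitals. Outside the printed stretch, the window of Mrps27 also held the YY1 core described next, 29 bases after the start. Mrpl17 held its 2 matches 54 and 16 bases before the start, counted to the first base of each.

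Over the 59 member promoters, CGCATGCG, which reads the same on both strands, was in 6 (10.2%), against 3.16% of the 11089 promoters of measured genes and 1.81% of all 27457. CCGGAAG or its reverse was in 20 (33.9%), against 15.2% and 9.22%. The YY1 core AAGATGGCG, which can share its first letters with the end of CCGGAAG but did so in 0 members, was in 8 (13.6%), against 3.1% and 1.93%. At least 1 of these was in 30 of the 59 (50.8%), against 19.8% and 12.1%. The median change at 24 h was 0.26 in the 30 with a match and 0.25 in the 29 without one, and no test was made. A match is a run of letters, not a measured site.

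At 120 h no member was called, with 0 higher and 0 lower (limma), where 0.513% of all genes were higher and 1.51% lower. At an unadjusted p under 0.05 there were 10 of 73 members and 1865 of all 13438 genes. The median change was -0.19, against -0.01 over all genes, and 5 of 73 were above 0. Without the narrow arrays 0 members were higher and 0 lower as well, with 7 at an unadjusted p under 0.05, but the median was 0.12 and 60 of 73 were above 0, so the sign of the shift turned with 3 of the 6 ANIT arrays. Groups separated in none of the 73 genes, where 0.558% of all genes separated upward and 1.58% downward.

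Values of single genes at 120 h showed the split. Mrps33, a small-subunit addition, had 8.50, 8.76 and 9.09 with vehicle and 7.68, 8.13 and 8.94 with ANIT. The change of -0.55 ± 0.19 (limma adjusted p = 0.16) was the lowest of the 73, it was -0.05 without the narrow arrays, and it was called (1 gene lower) only without ANIT 120 h replicate 3. Mrps2 stood at -0.37 ± 0.12 (adjusted p = 0.14) with all arrays and at -0.23 without the narrow ones. Mrpl52 (0.22 ± 0.14, adjusted p = 0.48) and Mrpl41 (0.14 ± 0.12, adjusted p = 0.65) had the smallest p among changes above 0. Mrps18b lay at 9.02, 9.12 and 9.62 with ANIT and 9.20, 9.43 and 9.62 with vehicle, a change of -0.24 ± 0.12 (adjusted p = 0.40).

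The effect of ANIT was tested between the times directly. The change at 120 h minus the change at 24 h was called lower in 15 of the 73 genes and higher in 0, where 11.0% of all genes were lower and 3.33% higher, and the median was -0.45 against -0.02 over all genes. Mrps18b differed by -1.11 ± 0.17 (limma adjusted p = 0.00012), from 0.87 at 24 h to -0.24 at 120 h. Mrps27 differed by -1.20 ± 0.23 (adjusted p = 0.00088), from 1.01 to -0.19. In both genes the ANIT rats at 120 h were back within the range of vehicle rats at 24 h or below it, apart from 1 Mrps18b value at 9.62. Mrps2 differed by -0.95 ± 0.17 (adjusted p = 0.00058), Mrpl49 by -1.15 ± 0.23 (adjusted p = 0.0014) and Mrpl55 by -1.01 ± 0.24 (adjusted p = 0.0054).

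Without the narrow arrays the difference was called in Mrps18b (-0.79, limma adjusted p = 0.014) and Mrps2 (-0.64, adjusted p = 0.031), 2 genes lower where 2.5% of all genes were, and the median was -0.01. With the control level as covariate 4 were lower, namely Mrps18b, Mrps2, Mrps27 and Mrpl49, and 2 were higher, namely Mrpl14 and Mrpl52, where 4.73% and 6.24% of all genes were. With the beta-actin ratio as covariate Mrps18b was the 1 called, where 1.82% of all genes were lower. Leaving out ANIT 120 h replicate 3 raised the count from 15 to 37, leaving out vehicle 24 h replicate 1 raised it to 34, and leaving out ANIT 120 h replicate 1 raised it to 27. Of the 15 genes, 10 kept their call without ANIT 120 h replicate 4, 5 or 6, which are narrow arrays. Without vehicle 24 h replicate 3, 4 or 5, also narrow arrays, or ANIT 24 h replicate 6, 11 kept it. Mrps18b was called in each of these fits. For the fits without 1 rat the share of all genes called was not counted.

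**Figure D4:**
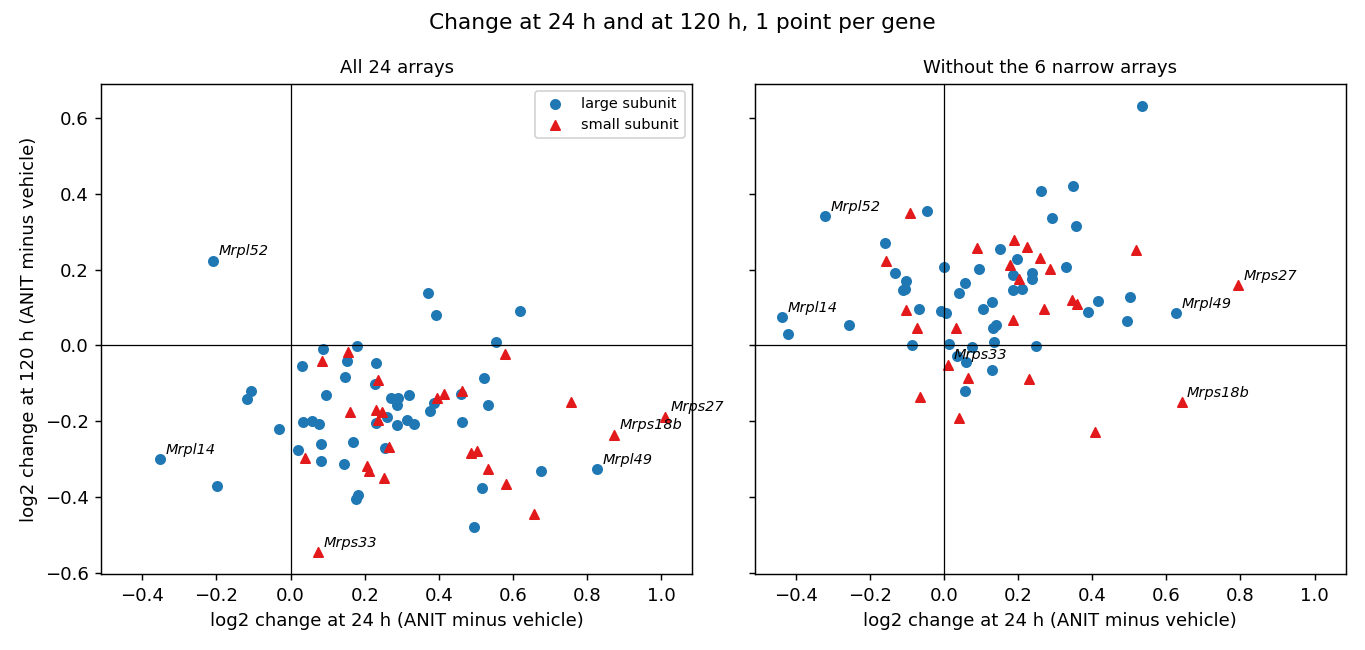
Log2 change at 24 h on the horizontal axis and at 120 h on the vertical axis, 1 point per gene by subunit, with all 24 arrays on the left and without the 6 narrow arrays on the right. The median at 120 h is -0.19 on the left and 0.12 on the right, while Mrps18b and Mrps27 lie far to the right at 24 h in both.

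The vehicle groups were compared as a background without ANIT, but they were different rats, so time and set of rats cannot be told apart. Vehicle rats at 120 h against vehicle rats at 24 h gave 0 members higher and 0 lower (limma), where 0.00744% and 0.0% of all genes were called, and 8 of 73 members and 1639 of all 13438 genes had an unadjusted p under 0.05. The median was 0.20 against 0.04 over all genes, and 68 of 73 were above 0. It was 0.05 without the narrow arrays, which sit in the 24 h vehicle group. Mrps33 (0.56 ± 0.19, adjusted p = 0.29) and Mrpl18 (0.37 ± 0.15, adjusted p = 0.35) had the smallest p upward, and Mrpl52 (-0.28 ± 0.14, adjusted p = 0.42) and Mrpl10 (-0.08 ± 0.08, adjusted p = 0.63) downward.

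Other probe sets of the same genes gave a partial repeat of the 24 h values. Mrpl49 had another probe set that rose by 0.93 ± 0.22 (limma over all single-gene probe sets, adjusted p = 0.0039), and Mrps27 had 2 others at 0.49 (adjusted p = 0.029) and 0.26 (adjusted p = 0.11). The dimmer probe sets of Mrps22 (-0.12) and Mrps2 (-0.01 and -0.13) did not change with the brighter ones, and both genes lost the call when the probe sets of a gene were averaged. Mrpl12's 3 probe sets disagreed, at 0.53, -0.56 and 0.12, and none was called. A dimmer probe set of Mrps14 rose by 0.52 ± 0.14 (adjusted p = 0.015), where the one used stood at 0.50 ± 0.20. The dimmest of Mrpl51's 4 rose by 0.70 ± 0.23 (adjusted p = 0.038), where the one used stood at 0.03. Mrpl52's other probe set had the opposite sign to the one used throughout, at 0.18 against -0.21 at 24 h, -0.29 against 0.22 at 120 h and -0.47 against 0.43 in the difference between the times, and none of these was called.

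Members varied together from rat to rat. After the group means were removed, the median Pearson correlation over the 2628 pairs of members was 0.74 across the 24 arrays, against 0.04 over all pairs of genes. Between a member and any gene the median was 0.23, with quartiles of -0.29 and 0.56. No pairs matched by level were taken, so co-variation particular to the members was not tested. The pairs share arrays and their quality. With the control level removed as well, the median was 0.39, with 0.46 within the large subunit and 0.30 within the small subunit, and with the array SD removed it was 0.33. The lowest medians of a single gene with the other members, before either was removed, were -0.24 for Mrps31 and 0.01 for Mrpl10, a stalk-base protein.

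Lists of genes that work with the mitochondrial ribosome are read at 24 h against the 12.9% of all genes called higher and 5.31% lower. Of 5 ribosome proteins with other names, Aurkaip1 was higher (0.47 ± 0.15, limma adjusted p = 0.032), and the median was 0.42. Of 16 translation factors, Slirp, which stabilises mitochondrial messages, was higher (0.49 ± 0.15, adjusted p = 0.028). Of 16 tRNA synthetases, Wars2 was higher (0.66 ± 0.16, adjusted p = 0.0043). Each list had 1 gene higher and 0 lower, and of the 3 genes Wars2 alone kept its call with the control level as covariate (0.40, adjusted p = 0.023). Without the narrow arrays Slirp alone kept it (0.47, adjusted p = 0.027), and Wars2 (0.43, adjusted p = 0.072) and Aurkaip1 (0.37, adjusted p = 0.13) did not.

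Of 25 assembly and ribosomal RNA factors, Mrm2, a methyltransferase of the large ribosomal RNA, was higher (0.65 ± 0.13, limma adjusted p = 0.00063), as was Malsu1 (0.41 ± 0.14, adjusted p = 0.043). Mrm2 kept its call with the control level (0.53) and without the narrow arrays (0.41), and Malsu1 in neither (0.22 and 0.31). Of 20 genes for transcription and copying of mitochondrial DNA and their nuclear regulators, 2 were higher and 2 lower. Pprc1, a coactivator of the PGC-1 family, rose by 0.93 ± 0.19 (adjusted p = 0.00079) and Myc by 0.77 ± 0.26 (adjusted p = 0.039). Polg and Polg2, the subunits of the mitochondrial DNA polymerase, fell by 0.49 (adjusted p = 0.0011) and by 0.72 (adjusted p = 0.0028). Pprc1, Polg and Polg2 were called with the control level (0.77, -0.58 and -0.88) and without the narrow arrays (0.68, -0.62 and -0.79) as well. Myc was called in neither (0.56, adjusted p = 0.17, and 0.64, adjusted p = 0.25). The list then held 1 gene higher and 4 lower with the control level, where Twnk (-0.58) and Sirt3 (-0.70) joined, and 1 higher and 3 lower without the narrow arrays, where Twnk (-0.60, adjusted p = 0.0059) joined. Of all genes, 8.13% were higher and 10.3% lower with the control level, and 6.11% and 5.45% without the narrow arrays.

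At 120 h the same lists held 2 calls, both lower, where 0.513% of all genes were higher and 1.51% lower. Pdf, a peptide deformylase that trims new mitochondrial chains, fell by 0.41 (limma adjusted p = 0.029), and the synthetase Iars2 fell by 0.66 (adjusted p = 0.028). Without the narrow arrays, which hold 3 of the ANIT rats, Pdf stood at -0.21 (adjusted p = 0.38) and Iars2 at -0.53 (adjusted p = 0.19), and neither was called. Both kept their calls with the control level as covariate, Pdf at -0.32 (limma adjusted p = 0.014) and Iars2 at -0.53 (adjusted p = 0.023). Larger families are set beside the members for scale. Over all genes 12.9% were higher and 5.31% lower at 24 h, and 8.13% and 10.3% with the control level. Cytosolic ribosomal proteins were higher in 14 of 42 and lower in 0 at 24 h, with a median of 0.23, and in 5 of 42 with the control level. Respiratory chain and ATP synthase subunits were higher in 9 of 77 and lower in 1, with a median of 0.21, and with the control level 2 were higher and 2 lower. The medians of both families thus lay near that of the members, 0.25, and no test between them was made.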

How the data were processed

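Liver RNA was measured on 24 one-colour arrays, 6 per group, and groups came from the sample descriptions. Each probe set has 1 deposited log2 value per array, between 2.34 and 13.5. The submitters' processing notes name RMA and Partek, with versions and settings not given in the sources at hand. The values were not changed. Of 31139 probe sets, 19068 named 1 gene in the platform annotation, checked by Entrez identifier against the GRCr8 RefSeq table. Each of 13438 genes was read by its highest-mean probe set. A 4-group model was fitted with limma 3.58.1 in R 4.3.3, and a gene was called at an adjusted p under 0.05 (Benjamini-Hochberg, all genes). The fit was tested on simulated data with independent noise for each gene and array. That test held no effect shared by the genes of an array, so it cannot show how calls fare under one. Alternatives changed normalization, probe choice, filter, covariates, weights, arrays and variance model. Members, lists and alternatives were chosen with earlier results of these data known. Values were given for the 10 called members with the smallest p at 24 h, up to 5 for the difference between times, the 2 with the smallest p in a direction without calls, members of known role, and those highest and lowest in level. The number of arrays limits the precision. Figures used Python 3.11.15 and matplotlib 3.10.9.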

Additional observations from a re-analysis of the deposited data

Results flagged for a closer look

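In the groups of 6 rats, 4 of 108 gene and group combinations, tested in 27 members, had a rat far from the rest, where chance gives about 1 in 20. Mrps18b had its highest ANIT 120 h value in replicate 3, at 9.62 against 9.22 for the next. Mrpl17 was highest with vehicle at 24 h in replicate 1, at 8.88 against 8.73. Mrpl55 was lowest with ANIT at 24 h in replicate 4, at 8.55 against 8.88. Mrpl52 was lowest with vehicle at 24 h in replicate 5, at 10.02 against 10.45.

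The effect of ANIT differed between 24 h and 120 h in 15 members by the limma interaction, each lower at 120 h. The log2 differences were -1.20 for Mrps27, -1.15 for Mrpl49, -1.11 for Mrps18b, -1.01 for Mrpl55, -0.97 for Mrpl19, -0.95 for Mrps2, -0.91 for Mrps28, -0.89 for Mrpl21, -0.86 for Mrps34 and -0.77 for Mrps15. They were -0.61 for Mrpl17, -0.60 for each of Mrps22 and Mrps25, -0.59 for Mrpl37 and -0.54 for Mrps7.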

How the results depend on the processing

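The 18 members higher at 24 h became 9 with the control level as covariate, 10 with the array SD, 2 with the beta-actin ratio, 30 with array weights and 9 without the 6 narrow arrays. Of all genes, 12.9% were higher as deposited, 8.13% with the control level, 3.44% with the beta-actin ratio and 6.11% without the narrow arrays. The share was not counted with the array SD, with array weights or without 1 rat, so those counts have no background beside them. Members lower at 24 h, 0 with the values as deposited, numbered 3 after quantile normalization, 3 with the control level, 3 with the array SD and 1 without the narrow arrays. Of all genes, 5.31% were lower as deposited, 8.1% after quantile normalization, 10.3% with the control level and 5.45% without the narrow arrays. For the difference between times, members higher went from 0 to 1 after quantile normalization, 2 with the control level and 2 with the array SD. Members lower went from 15 to 4 with the control level, 8 with the array SD, 1 with the beta-actin ratio and 2 without the narrow arrays. Of all genes, 11.0% were lower as deposited, 4.73% with the control level, 1.82% with the beta-actin ratio and 2.5% without the narrow arrays. The share of all genes higher was 3.33% as deposited and 6.24% with the control level. The median difference, -0.45, was -0.106 with the control level, -0.155 with the array SD and -0.015 without the narrow arrays. The median at 120 h was 0.119 without the narrow arrays, and that of the vehicle groups -0.083 with the control level. Leaving out 1 rat gave 10 to 31 members higher at 24 h, 10 to 37 lower in the difference and 0 to 1 lower at 120 h. The cause of these shifts was not tested. No paired analysis was possible because replicate numbers follow accession order and pair no rats.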
